A study of Mus musculus with 6 samples.

Results

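The genes described here are 10 chemokine genes read in mouse bone marrow-derived macrophages (BMDMs), namely 3 CC chemokines linked to IL-4 (*Ccl17*, *Ccl22* and *Ccl24*) and 7 CXC chemokines (*Cxcl1*, *Cxcl2*, *Cxcl3*, *Cxcl10*, *Cxcl14*, *Cxcl16* and *Pf4*). They were chosen by name, as the rows of the read count table whose RefSeq identifiers map to these symbols. All 10 were found, each on 1 row, among 24445 genes. The libraries came from BMDMs of female mice on a C57Bl/6J background. AclyM-KO cells were Acly fl/fl, with loxP sites around an exon of *Acly*, and carried Cre driven from the *Lyz2* gene, which is active in myeloid cells. Ctrl cells were Acly fl/fl without Cre. Both groups, with 3 libraries each, thus carried the floxed alleles, had been grown for 7 days in L929-conditioned medium and had received 100 U/mL IL-4 for 24 h. Untreated BMDMs were not analysed here, so no value below is a response to IL-4. The study calls the replicates biological in one place and technical replicates of pooled mice in another, so p-values measure the spread between libraries, which may be technical.

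Chemokines are small secreted proteins that guide leukocytes through G protein-coupled receptors. IL-4 signals through the transcription factor STAT6, and macrophages and dendritic cells exposed to it are known to make CCL17 and CCL22, which attract T cells through CCR4, and CCL24, which attracts eosinophils through CCR3. Of the CXC members, CXCL1, CXCL2 and CXCL3 attract neutrophils through CXCR2 and are classic targets of NF-kB, CXCL10 is induced by interferons and binds CXCR3, and CXCL16 is made as a transmembrane protein that binds CXCR6. PF4, or platelet factor 4, is best known from platelet granules, and CXCL14 is a chemokine of epithelia and other tissues.

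*Acly*, the deleted gene, was at 334 ± 14.4 CPM in Ctrl and at 138 ± 6.63 CPM in AclyM-KO (SD, n = 3 each), or 41.4% of the Ctrl level. CPM are counts per 1000000 of the scaled library. The row counts the whole transcript of 29 exons, so transcripts without the floxed exon can still be counted. The 41.4% is thus not a measure of the intact *Acly* left. The libraries held 12151975 to 15587283 counts on the rows used. Macrophage marker genes summed to 13399 to 14710 CPM in the Ctrl and 11088 to 11539 CPM in the AclyM-KO libraries, with *Mertk* and *Lyz2* called lower among 8. *Lyz2*, the gene that drives Cre, gave 6092 to 7121 CPM of this sum in Ctrl and 4004 to 4222 CPM in AclyM-KO, whereas *Adgre1* was higher within the fold change limit (log2 fold change 0.33, edgeR adjusted p = 2.27e-05). Of the 8 markers, 4 were lower and 1 was higher at an edgeR adjusted p under 0.05. Over all genes tested these shares were 12.6% and 12.4%. The log2 fold changes of 7 markers lay below 0 and that of 1, *Adgre1*, above. Markers of IL-4-treated macrophages summed to 9278 to 9735 and 7976 to 8452 CPM, with *Arg1* and *Mgl2* called lower among 5. *Arg1* alone gave 1034 to 1231 CPM of this sum in Ctrl and 283 to 298 CPM in AclyM-KO. Of the 5, only *Arg1* and *Mgl2* had an edgeR adjusted p under 0.05, beside the 12.6% lower over all genes tested. All 5 log2 fold changes lay below 0, with a median of -0.12. Markers of other cells were scarce. Neutrophil markers summed to 12.6 to 13.8 CPM in Ctrl and 19.2 to 19.9 CPM in AclyM-KO (*S100a8* and *S100a9* called higher of 9 listed, with 6 too low to be tested). Eosinophil and mast cell markers summed to 4.66 to 6.60 and 9.53 to 10.9 CPM (*Kit* called higher of 6, with 4 too low to be tested, *Mcpt4* at 0). *Kit* alone gave 2.36 to 4.02 CPM of this sum in Ctrl and 6.92 to 8.12 CPM in AclyM-KO. Fibroblast markers summed to 0.304 to 0.982 and 1.03 to 1.51 CPM (0 of 7 tested, *Lum* at 0), and lymphocyte markers to 0.152 to 0.676 and 0.409 to 0.772 CPM (0 of 6 tested). The part of these differences in the values below was not tested. In bulk RNA, fewer cells of a type and less RNA per cell cannot be told apart.

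Among the 10 chemokine genes, *Ccl22* and *Cxcl16* were lower in AclyM-KO, at 47.5% and 62.6% of the Ctrl mean, while *Pf4* was higher, at 134% of it, and *Ccl24* had 102% of it. The remaining genes were low, with means from 0 to 6.24 CPM, and none of their differences passed the test. A gene was called when the adjusted p-value of edgeR's quasi-likelihood test was under 0.05 and the log2 fold change, AclyM-KO over Ctrl, was beyond 0.58 in either direction. Of the 8 members that passed the filter on low counts, 2 were called lower and 0 higher, whereas 5.55% of all 12023 genes tested were called, 2.57% lower and 2.98% higher. DESeq2 and limma-voom gave the same counts for the members, and 4 of the 8 members had an unadjusted edgeR p under 0.05, as did 36.7% of all genes tested. By the adjusted p-value alone, 2 members were lower and 1 was higher, with 24.9% of all genes tested passing either way. The groups did not overlap for 3 members, and for 40.2% of all genes tested (19.8% with AclyM-KO lower, as for 2 of these members, and 20.5% with AclyM-KO higher). The median log2 fold change of the 8 members was -0.08, with 4 values below and 4 above 0, and that of all genes tested was 0.0014. The 10 genes thus did not move in one direction. With so few members tested, the count of calls is a description only.

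**Figure D1:**
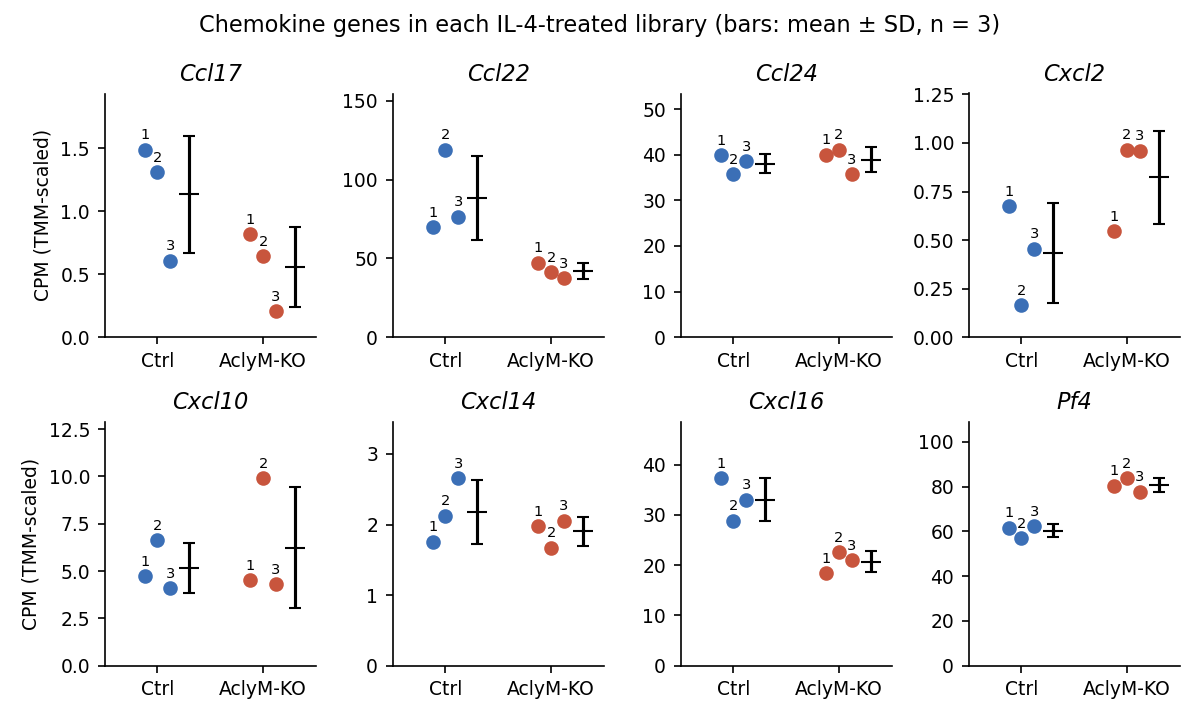
Each panel plots 1 tested chemokine gene, with TMM-scaled CPM on a vertical axis that starts at 0, Ctrl libraries in blue and AclyM-KO libraries in red, numbered by replicate, and the mean ± SD (n = 3) in black. The groups do not overlap for *Ccl22*, *Cxcl16* and *Pf4*, and 1 Ctrl library stands high for *Ccl22* as 1 AclyM-KO library does for *Cxcl10*.

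**Figure D2:**
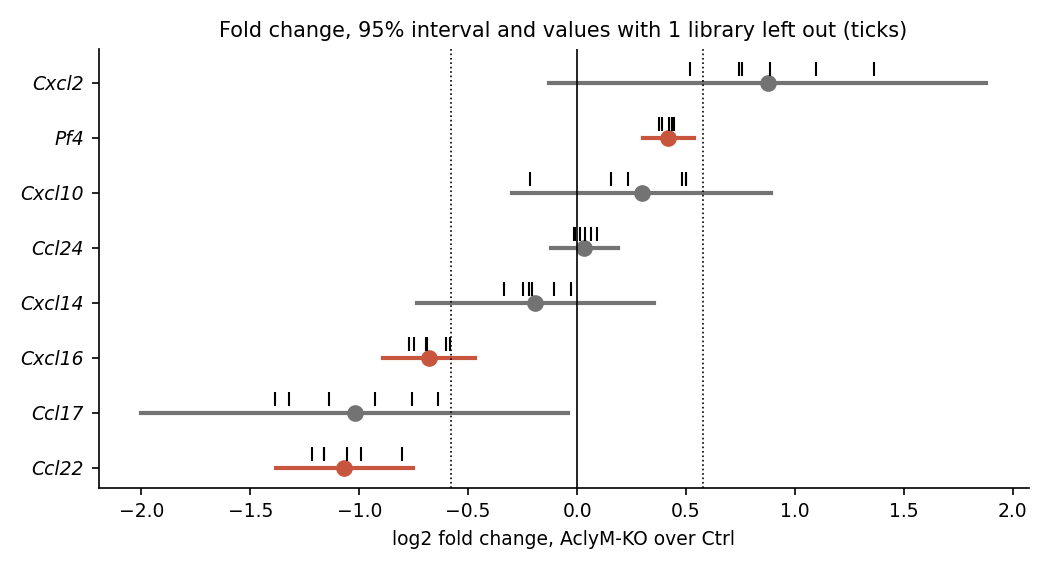
The log2 fold change of each tested chemokine gene is plotted as a point with its 95% interval as a line, in red where the edgeR adjusted p-value was under 0.05, and black ticks give the values with 1 library left out. Dotted lines mark 0.58 in either direction, and the ticks of *Ccl24* and *Cxcl10* lie on both sides of 0.

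*Ccl22* lies on the plus strand of chromosome 8 of GRCm38 from 94745590 to 94751699 and has 3 exons in the GENCODE M21 transcript paired with its row. Its expression was 69.7, 119 and 76.5 CPM in Ctrl replicates 1, 2 and 3 and 47.3, 41.2 and 37.4 CPM in AclyM-KO replicates 1, 2 and 3. Every AclyM-KO library was thus below every Ctrl library, and Ctrl replicate 2 stood well above the other Ctrl libraries. The means were 88.4 ± 26.7 CPM (SD, n = 3) and 42.0 ± 4.97 CPM (SD, n = 3), a log2 fold change of -1.07 (standard error 0.148, 95% interval -1.38 to -0.75, edgeR adjusted p = 8.87e-05). Expression fell 2.10-fold. Over the libraries alone, the two-sided exact permutation p was 0.10, and no smaller value is possible with 3 libraries per group. *Ccl22* was called lower with each library left out in turn, with log2 fold changes between -1.22 and -0.80, the weaker end without Ctrl replicate 2 (edgeR adjusted p = 8.24e-08). In that library dendritic cell markers summed to 4.66 CPM, against 3.58 and 3.72 CPM in the other Ctrl libraries. *Zbtb46* alone gave 3.19 CPM of this sum in Ctrl replicate 2, against 1.01 and 2.20 CPM in Ctrl replicates 1 and 3. In AclyM-KO the dendritic cell markers summed to 4.73 to 5.73 CPM. *Cd209a* was called higher among the 8 listed, with 6 too low to be tested. *Cd209a* had 3 to 16 counts per library, *Zbtb46*, another of these markers, had a log2 fold change of 0.08 (edgeR adjusted p = 0.886), and the part of these markers in the *Ccl22* values was not tested.

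*Ccl17* shares a chromosomal cluster with *Ccl22*, from which it is 58.8 kb away on chromosome 8 (94810453 to 94812036, plus strand, 3 exons), and its protein shares the receptor CCR4. It was far less abundant, with 22, 16 and 8 counts in Ctrl and 12, 10 and 3 counts in AclyM-KO replicates 1, 2 and 3. These were 1.49, 1.31 and 0.607 CPM in Ctrl and 0.819, 0.643 and 0.206 CPM in AclyM-KO. The groups overlapped, because the lowest Ctrl library lay below the highest 2 AclyM-KO libraries. The means were 1.13 ± 0.465 CPM and 0.556 ± 0.316 CPM (SD, n = 3 each), and the log2 fold change of -1.02 (standard error 0.461, 95% interval -2.00 to -0.041) did not pass the test (edgeR adjusted p = 0.121). The point estimate was close to that of *Ccl22*, but its interval was wide at 3 to 22 counts per library. Relative to *Ccl22*, *Ccl17* had 2.13%, 1.10% and 0.794% of its counts in Ctrl and 1.73%, 1.56% and 0.549% in AclyM-KO, so the ratio overlapped between the groups. An exact permutation test of the *Ccl17* CPM gave a two-sided p of 0.30.

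The 250 bases before the RefSeq start of these genes are shown to compare their STAT motifs, since both genes are known to respond to IL-4. Sequences come from RefSeq on GRCm38.p6, 5′ to 3′ on the coding strand, and promoters were found for 8 of the 10 members. Capitals mark matches to the 6 motifs searched on both strands, and positions count back from the RefSeq start, which can differ from the GENCODE start.
Ccl22, chr8:94745434-94745683, plus strand: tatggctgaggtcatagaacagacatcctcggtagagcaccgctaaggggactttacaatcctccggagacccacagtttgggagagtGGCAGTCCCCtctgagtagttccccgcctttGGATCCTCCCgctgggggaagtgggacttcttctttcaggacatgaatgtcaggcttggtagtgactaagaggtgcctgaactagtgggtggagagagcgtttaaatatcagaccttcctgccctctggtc
Ccl17, chr8:94810203-94810452, plus strand: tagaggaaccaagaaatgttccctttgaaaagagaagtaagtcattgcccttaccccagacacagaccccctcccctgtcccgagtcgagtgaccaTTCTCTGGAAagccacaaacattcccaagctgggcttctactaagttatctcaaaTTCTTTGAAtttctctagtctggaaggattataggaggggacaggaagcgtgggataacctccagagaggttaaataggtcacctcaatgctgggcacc
The *Ccl17* window held a match to the STAT6 form, TTC and GAA with 4 bases of any kind between them, from -154 to -145, and a match to the general STAT form, with 3 bases between them, from -99 to -91. The *Ccl22* window held neither, but 2 matches to the NF-kB form, GGG and CC with 5 bases between them (read here on the other strand), from -162 to -153 and from -131 to -122. Of 32851 promoter windows of the same length, 5.85% held the first, 7.02% the second and 45.8% the third. The *Ccl22* window runs past the GENCODE start of the gene (94745590) to 94745683, so its last part lies inside the gene. The *Ccl17* window ends just before its GENCODE start (94810453), so the 2 windows are not alike. A match is a description of the letters and not evidence of binding.

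*Ccl24*, the eosinophil chemokine of the IL-4 group, lies on the minus strand of chromosome 5 from 135569937 to 135573049. It had 39.9, 35.7 and 38.6 CPM in Ctrl and 40.0, 41.1 and 35.8 CPM in AclyM-KO replicates 1, 2 and 3. The ranges of the 2 groups almost coincided. The means were 38.1 ± 2.11 and 39.0 ± 2.81 CPM (SD, n = 3 each), with a log2 fold change of 0.03 (standard error 0.0724, 95% interval -0.12 to 0.19, edgeR adjusted p = 0.786). The interval thus lay inside the fold change limit on both sides. The exact permutation p was 0.50, two-sided, and the sign of the estimate turned to -0.014 without Ctrl replicate 2 and to -0.0084 without AclyM-KO replicate 2. Per kilobase of transcript, the level of *Ccl22* was 1.02, 1.95 and 1.16 times that of *Ccl24* in the Ctrl libraries and 0.691, 0.586 and 0.611 times in the AclyM-KO libraries. With these lengths, *Ccl22* was the more abundant of the pair in every Ctrl library and the less abundant in every AclyM-KO library. The margin in Ctrl replicate 1 was narrow. The length used for *Ccl22* was 2216 bases, whereas its exonic bases number 2325, and the order in that library depends on this choice.

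*Cxcl16* encodes a transmembrane chemokine that also acts as a scavenger receptor for oxidised lipoprotein, and lies on the minus strand of chromosome 11 from 70453983 to 70459984, with 5 exons. Its expression was 37.3, 28.9 and 33.0 CPM in Ctrl and 18.4, 22.6 and 21.0 CPM in AclyM-KO replicates 1, 2 and 3. All AclyM-KO libraries were below all Ctrl libraries. The means were 33.1 ± 4.21 and 20.7 ± 2.10 CPM (SD, n = 3 each), a 1.60-fold lower level in AclyM-KO. The log2 fold change was -0.68 (standard error 0.100, 95% interval -0.89 to -0.47, edgeR adjusted p = 1.45e-04), and the exact permutation p was 0.10, two-sided. Over the fits that each lacked 1 library it lay between -0.77 and -0.58, and the call was kept each time. The interval includes the fold change limit, and edgeR's glmTreat, which tests against that limit itself, did not call *Cxcl16* (adjusted p = 1) but called *Ccl22* (adjusted p = 0.0493). Of the 3021 exonic bases of *Cxcl16*, 552 lie under exons of *Zmynd15* on the other strand. The *Zmynd15* row held 13 to 27 counts per library, against 270 to 552 on the *Cxcl16* row.

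Of the genes of the enzymes known to shed CXCL16 from the cell surface, the metalloprotease gene *Adam10* was slightly higher in AclyM-KO (log2 fold change 0.19, edgeR adjusted p = 0.0082), within the fold change limit, whereas *Adam17* had -0.12 and did not pass the test (edgeR adjusted p = 0.0861). The CXCL16 receptor gene *Cxcr6* had 1 to 11 counts per library and was not tested.

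*Pf4* had the highest level per kilobase of transcript among the 10 genes in both groups. It lies on the plus strand of chromosome 5 from 90772435 to 90773383 and had 61.7, 56.8 and 62.2 CPM in Ctrl and 80.4, 83.7 and 77.7 CPM in AclyM-KO replicates 1, 2 and 3. Every AclyM-KO library was above every Ctrl library, and the libraries of a group lay close together. The means were 60.3 ± 2.97 and 80.6 ± 3.00 CPM (SD, n = 3 each), a 1.34-fold higher level. The log2 fold change of 0.42 (standard error 0.0556, 95% interval 0.30 to 0.54) passed the test (edgeR adjusted p = 5.94e-05) but lay within the fold change limit, so *Pf4* was not called. Its exact permutation p was 0.10, two-sided, and its log2 fold change stayed between 0.38 and 0.44 with each library left out. Megakaryocyte and platelet markers were nearly absent, at 1.96 to 2.37 CPM in sum in Ctrl and 1.36 to 1.99 CPM in AclyM-KO. Of these 9 genes, *Gp5*, *Gp6* and *Gp9* had no count in any library, *Tubb1* was the only gene tested, with 16, 18 and 22 counts in Ctrl and 10, 7 and 14 counts in AclyM-KO (edgeR adjusted p = 0.0546), and *Ppbp*, which encodes another platelet chemokine, had 1 to 4 counts. The *Pf4* promoter window, shown because *Pf4* was the member that rose, held no match to any of the motifs searched.
Pf4, chr5:90772185-90772434, plus strand: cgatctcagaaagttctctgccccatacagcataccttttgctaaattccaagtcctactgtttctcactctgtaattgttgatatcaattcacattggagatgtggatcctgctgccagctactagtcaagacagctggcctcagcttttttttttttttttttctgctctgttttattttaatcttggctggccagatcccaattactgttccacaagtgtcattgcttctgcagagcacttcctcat

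The neutrophil chemokines were almost silent in both groups. *Cxcl1* (chromosome 5, 90891241 to 90893115, plus strand) had 0 counts in every library except AclyM-KO replicate 2, which had 3. *Cxcl3* (chromosome 5, 90786103 to 90789600, plus strand) had 0 counts in every library except AclyM-KO replicate 3, which had 2. Neither passed the filter on low counts, and a count of 0 allows up to 3 counts, or 0.193 to 0.245 CPM, in these libraries, counting error only. *Cxcl2* (chromosome 5, 90903871 to 90905938, plus strand) had 10, 2 and 6 counts in Ctrl and 8, 15 and 14 counts in AclyM-KO replicates 1, 2 and 3. The groups overlapped, with AclyM-KO replicate 1 below Ctrl replicate 1. The means were 0.432 ± 0.257 and 0.823 ± 0.240 CPM (SD, n = 3 each), and the log2 fold change of 0.88 (standard error 0.472, 95% interval -0.13 to 1.88) did not pass the test (edgeR adjusted p = 0.195, exact permutation p = 0.20, two-sided). At these counts neither a rise nor its absence was detectable. The receptor gene *Cxcr2* had 6 to 12 counts per library.

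These 3 genes lie with *Pf4* in the CXC cluster of chromosome 5, where *Pf4* is 12.7 kb from *Cxcl3* and 130 kb from *Cxcl2*, and *Cxcl1* is 10.8 kb from *Cxcl2*. Their promoters share the letters GGAATTTCC close to the RefSeq start, and *Cxcl10* carries them on the other strand farther away. The stretches of 39 bases around them are shown with the shared letters in capitals.
Cxcl1, chr5:90891160-90891198, plus strand: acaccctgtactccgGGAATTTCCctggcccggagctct
Cxcl2, chr5:90903788-90903826, plus strand: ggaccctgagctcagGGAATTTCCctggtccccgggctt
Cxcl3, chr5:90786014-90786052, plus strand: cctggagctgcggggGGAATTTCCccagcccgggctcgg
Cxcl10, chr5:92349024-92349062, minus strand: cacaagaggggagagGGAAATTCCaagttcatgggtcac
The match starts at -70, -96, -72 and -158, respectively. These 9 letters, which were chosen with the sequences in view, occur in 0.286% of all promoter windows and lie inside matches to the NF-kB form. The 4 genes with this match had mean levels between 0 and 6.24 CPM in either group, and none of their differences was called.

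*Cxcl10*, the interferon-induced chemokine, is on the minus strand of chromosome 5 from 92346638 to 92348889. It had 4.73, 6.63 and 4.10 CPM in Ctrl and 4.50, 9.91 and 4.32 CPM in AclyM-KO replicates 1, 2 and 3. AclyM-KO replicate 2 stood above the other 5 libraries, which overlapped. The means were 5.15 ± 1.32 and 6.24 ± 3.18 CPM (SD, n = 3 each), with a log2 fold change of 0.30 (standard error 0.280, 95% interval -0.30 to 0.89, edgeR adjusted p = 0.482, exact permutation p = 0.80, two-sided). Without AclyM-KO replicate 2 the log2 fold change was -0.21, so its sign rested on that library. The same library was the highest of the AclyM-KO group for 10 of the 19 interferon pathway genes tested, against 2 for replicate 1 and 7 for replicate 3. The share over all genes tested is not given here, and the part of this in the *Cxcl10* value was not tested. The row of *Art3*, a gene on the other strand, nearly repeated the *Cxcl10* row, exceeding it by 0 to 5 counts per library. The other *Art3* rows had 0 counts. Exons of *Art3* cover only 133 of the 2252 exonic bases of *Cxcl10*, and how the 2 rows came to be so alike is not known. Reads of the 2 genes therefore cannot be told apart in this table. The *Cxcl10* promoter window also held the letters GAAAGTGAAA at -213, a match to the interferon-stimulated response element, taken as GAAA, 2 bases and GAAA, which 2.98% of all promoter windows hold. Among the other members, *Cxcl14* also held a match to this element (GAAACAGAAA at -172) and 1 to the general STAT form (TTCTGAGAA at -191). Of all promoter windows, 12.4% held the TATA form TATAAA, the sixth motif searched, as did *Cxcl3* among the members.

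*Cxcl14* (chromosome 13, 56288643 to 56296551, minus strand) had 1.76, 2.13 and 2.66 CPM in Ctrl and 1.98, 1.67 and 2.06 CPM in AclyM-KO replicates 1, 2 and 3, from 26 to 35 counts per library. The groups overlapped. The means were 2.18 ± 0.452 and 1.90 ± 0.203 CPM (SD, n = 3 each), with a log2 fold change of -0.19 (standard error 0.256, 95% interval -0.74 to 0.35, edgeR adjusted p = 0.635, exact permutation p = 0.40, two-sided).

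Levels were compared between genes only after division by transcript length, as CPM per kilobase. In Ctrl, the order was *Pf4* (102 ± 5.04), *Ccl22* (39.9 ± 12.1), *Ccl24* (29.4 ± 1.63), *Cxcl16* (12.2 ± 1.56), *Cxcl10* (4.71 ± 1.20), *Ccl17* (2.21 ± 0.904), *Cxcl14* (1.19 ± 0.248) and *Cxcl2* (0.389 ± 0.232), each as mean ± SD in CPM per kilobase (n = 3), with *Cxcl1* and *Cxcl3* at 0. The only neighbours in this order with a count whose libraries overlapped were *Ccl17* and *Cxcl14*. In AclyM-KO, the order was *Pf4* (137 ± 5.10), *Ccl24* (30.1 ± 2.17), *Ccl22* (18.9 ± 2.24), *Cxcl16* (7.66 ± 0.780), *Cxcl10* (5.71 ± 2.90), *Ccl17* (1.08 ± 0.614), *Cxcl14* (1.04 ± 0.111) and *Cxcl2* (0.742 ± 0.217). Here *Cxcl16* and *Cxcl10* overlapped, as did *Ccl17* and *Cxcl14*, and *Cxcl1* and *Cxcl3* followed at 0.0675 and 0.0450 CPM per kilobase. *Ccl22* and *Ccl24* thus changed places, and the means of *Pf4*, *Ccl22*, *Ccl24* and *Cxcl16* stood above those of the rest in both groups. In AclyM-KO the wide range of *Ccl17* also took in all *Cxcl2* libraries.

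**Figure D3:**
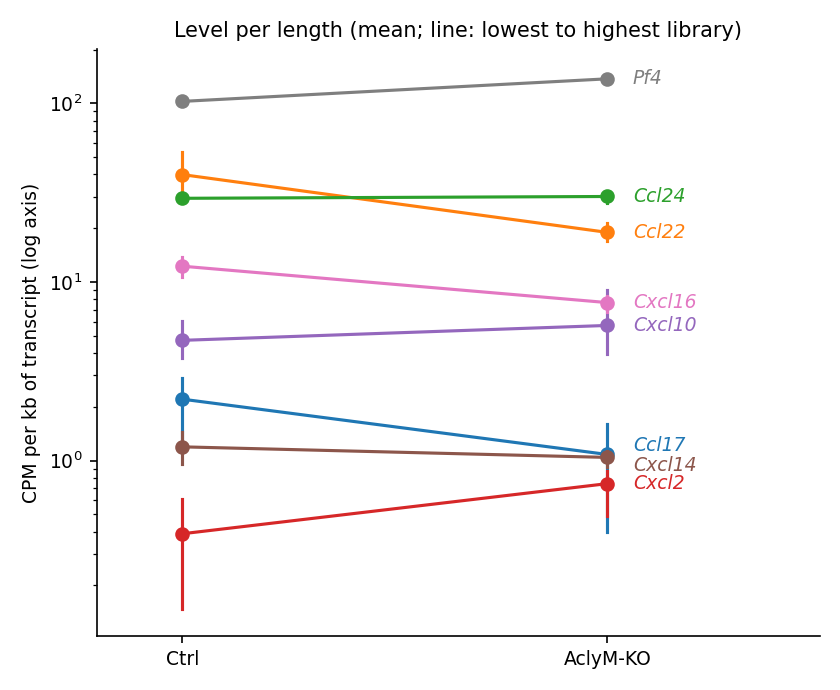
Mean levels per transcript length (CPM per kilobase, logarithmic axis) are joined from Ctrl to AclyM-KO for the tested chemokine genes, and vertical bars span the lowest to the highest of the 3 libraries. The lines of *Ccl22* and *Ccl24* cross, *Pf4* stays on top in both groups, and *Cxcl16* falls from 12.2 to 7.66.

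Around the 10 genes, 7 lists of related genes held 127 genes, of which 99 were tested and 3 were called higher and 7 lower. Over all genes tested, 2.98% were called higher and 2.57% lower, and the count in each list is a description only. Among other chemokine ligands, 12 of 28 were tested. *Ccl8* and *Ccl12*, which encode monocyte chemoattractants, were called higher, with log2 fold changes of 2.10 (edgeR adjusted p = 6.98e-09) and 1.21 (edgeR adjusted p = 1.85e-06). The median of these 12 was 0.06, and 7 of the ligands had no count in any library. Of 10 receptors of the members, 3 were tested and 0 were called by edgeR, DESeq2 or limma-voom, with 1 at an unadjusted edgeR p under 0.05. The CCL24 receptor gene *Ccr3* had 21.2 ± 3.26 CPM in Ctrl and 21.0 ± 3.54 CPM in AclyM-KO (SD, n = 3 each), whereas *Ccr4*, the receptor gene for CCL17 and CCL22, had no count in any library.

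Genes for the release and degradation of chemokines moved both ways. Of 10 tested, 1 was called higher and 2 lower, beside 2.98% and 2.57% of all genes tested. The median log2 fold change of the list was -0.10. *Mmp8*, a collagenase gene, was higher (log2 fold change 1.25, edgeR adjusted p = 1.61e-07). *Srgn*, which encodes the proteoglycan serglycin of secretory granules, was lower (-0.73, edgeR adjusted p = 1.17e-06), as was *Mmp9*, a gelatinase gene (-0.85, edgeR adjusted p = 0.00172). *Mmp9* had 666, 1049 and 721 counts in Ctrl and 575, 479 and 470 counts in AclyM-KO replicates 1, 2 and 3, so that Ctrl replicate 2 was the highest library, as it was for *Ccl22*. Without that library the log2 fold change of *Mmp9* was -0.55, within the limit, and the call was lost.

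Of 21 NF-kB pathway genes tested, 0 were called higher and 2 lower, beside 2.98% and 2.57% of all genes tested. The median of the list was 0.0076. The called genes were *Il1a*, the gene of the cytokine IL-1 alpha (-1.02, edgeR adjusted p = 5.63e-04), and the Toll-like receptor gene *Tlr2* (-0.68, edgeR adjusted p = 0.0109). The call of *Tlr2* was lost without Ctrl replicate 1 (-0.46) and without AclyM-KO replicate 1 (-0.59, edgeR adjusted p = 0.0528). Of 19 interferon pathway genes tested, 0 were called by edgeR, DESeq2 or limma-voom, with 7 at an unadjusted edgeR p under 0.05 (36.7% over all genes tested), and 1 was called without Ctrl replicate 2. By the adjusted p-value alone 1 was higher and 3 lower, against 24.9% of all genes tested in either direction, led by the receptor gene *Ifngr1* (log2 fold change -0.52, edgeR adjusted p = 5.68e-06) and the transcription factor gene *Irf8* (-0.43, edgeR adjusted p = 2.36e-05). The median log2 fold change of the 19 interferon pathway genes was 0.05, with 13 values above 0 and 6 below. *Ifnb1* had no count in any library.

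Of 20 IL-4 and STAT6 regulators, 0 were called higher and 2 lower, beside 2.98% and 2.57% of all genes tested. The list had a median log2 fold change of -0.12, with 16 values below 0. The receptor chain gene *Il13ra1* (-0.67, edgeR adjusted p = 0.0295) and the histone demethylase gene *Kdm6b* (-0.94, edgeR adjusted p = 1.31e-05) were called. The call of *Il13ra1* was lost with DESeq2 (adjusted p = 0.0686), with glmTreat and in 5 of the 6 fits that left out a library, all except that without Ctrl replicate 2. By the adjusted p-value alone, 8 were lower and 1 was higher, whereas 12.6% of all genes tested were lower by this rule and 12.4% higher. The median of all genes tested was 0.0014, and no test of the list as a whole was made. Of 14 mRNA decay factors, *Zfp36l1*, which encodes a protein that binds AU-rich elements, was called lower (-0.59, edgeR adjusted p = 1.43e-06) and 0 were called higher, with a median of -0.05. Its log2 fold change lay close to the limit, and the call was lost with glmTreat and without Ctrl replicate 2 (-0.575), Ctrl replicate 3 (-0.57) or AclyM-KO replicate 1 (-0.55). Ctrl replicate 2 was the highest Ctrl library for 11 of the 20 IL-4 and STAT6 regulators and for 9 of the 14 decay factors. For the NF-kB pathway it was Ctrl replicate 1, in 13 of the 21 genes tested. The shares over all genes tested are not given here.

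**Figure D4:**
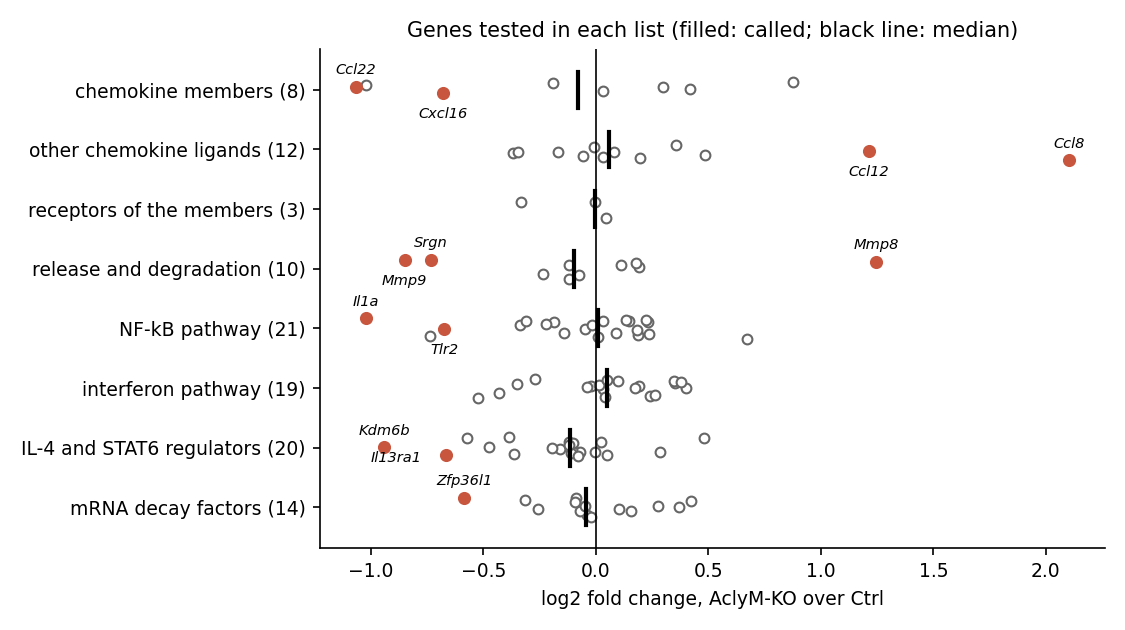
Each circle is 1 tested gene placed by its log2 fold change, with the number tested in parentheses, called genes filled and named, and a black line at the median of each list. The medians lie between -0.12 and 0.06, and the 3 genes called higher, *Ccl8*, *Ccl12* and *Mmp8*, lie outside the 10 chemokine genes.

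The nearest tested genes on the chromosome, up to 2 on each side within 200 kb, numbered 19 besides the members themselves. Of these, 1 was called lower and 0 higher, beside 2.57% lower and 2.98% higher over all genes tested. The gene called was *Tifab* next to *Cxcl14* (log2 fold change -0.62, edgeR adjusted p = 2.94e-07), and the median of the 19 was 0.0011. Among the 19 is *Art3*, whose row nearly repeated that of *Cxcl10*. Between *Ccl22* and *Ccl17*, the chemokine gene *Cx3cl1* had a log2 fold change of -0.35 that did not pass the test (edgeR adjusted p = 0.299). On the other side of *Ccl22*, *Arl2bp* was higher (0.43, edgeR adjusted p = 4.18e-04), within the fold change limit. Beside *Cxcl16*, *Med11* at a distance of 0.256 kb was also higher (0.42, edgeR adjusted p = 0.0128), within the limit, and *Zmynd15*, which overlaps *Cxcl16*, had -0.50 without passing the test (edgeR adjusted p = 0.248). Farther off, *Mink1* was lower within the limit (-0.31, edgeR adjusted p = 2.87e-04). Neither of the called chemokine genes thus had a neighbour that was called in the same direction, which with so few neighbours is a description only.

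**Figure D5:**
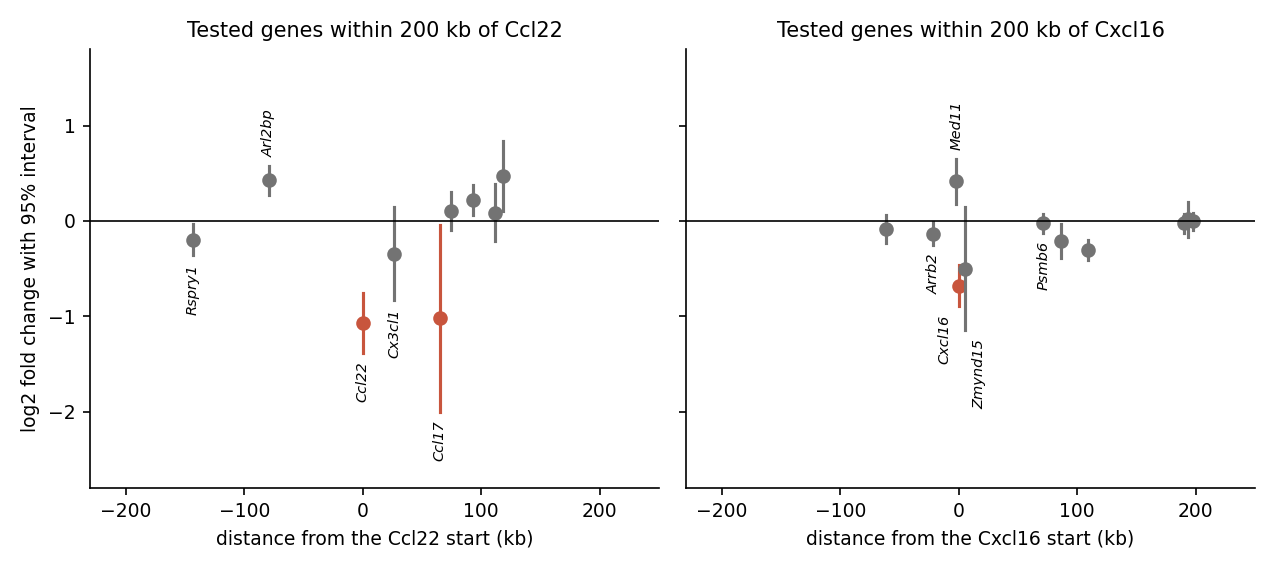
Log2 fold changes with 95% intervals are plotted against the distance in kb from the start of *Ccl22* (left) and *Cxcl16* (right), with members in red and other tested genes in grey, and names given to the members and to the nearest tested neighbours. *Ccl22* and *Ccl17* lie near -1.07 and -1.02, while *Arl2bp* and *Med11* lie above 0.

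Over the 6 libraries, the gene whose log2 CPM was most like that of *Ccl22* was *Eif2a* (Pearson r = 0.998), followed by *Flt1* (r = 0.995), and for *Cxcl16* they were *Fam78a* (r = 0.995) and *Dcaf1* (r = 0.994). These r are descriptions over 6 libraries of 2 groups, and 655 and 642 of 12015 genes, respectively, had an r above 0.9, so many genes shared each pattern. *Flt1*, which encodes a VEGF receptor, had a log2 fold change of -0.64 (edgeR adjusted p = 1.29e-04), and *Eif2a* one of -0.11 (edgeR adjusted p = 0.156).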

How the data were processed

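RNA was sequenced from IL-4-treated BMDMs, with 3 AclyM-KO and 3 Ctrl libraries grouped by the labels. Strand-specific mRNA libraries were prepared and reads mapped to mm10 with STAR 2.5.2b by the authors, who deposited raw read counts per RefSeq transcript, and the submitters' processing notes also list CASAVA 1.8.2. The counting program is not given in the sources used here. Of 35745 rows, 99.7% were paired with symbols through RefSeq tables or GENCODE M21, and 117 rows without a gene, holding 0.370% to 1.38% of counts, were left out. The tests had been planned for counts per gene, and since the counts are per transcript, the row with the highest total was kept for each gene. No column was left unused.

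The 12023 genes that passed filterByExpr entered edgeR 4.0.16 under R 4.3.3 (TMM, glmQLFit and glmQLFTest, with genotype as the sole factor), and p-values were adjusted over all of them by the Benjamini-Hochberg method. The common biological coefficient of variation was 0.0588. Standard errors are the absolute log2 fold change divided by the square root of F, and intervals cover 95%. Permutation tests were exact and two-sided, on the CPM of the libraries. CPM use TMM-scaled library sizes and were divided by GENCODE M21 transcript lengths to compare genes. Libraries of a group differed from each other beyond sampling noise (chi-square per gene 2.31 to 7.46), so none was counted as a duplicate. At 12151975 to 15587283 counts per library, 3 counts correspond to 0.193 to 0.245 CPM. Alternatives were RLE size factors, DESeq2 1.42.0 (the authors' tool), limma-voom 3.58.1, 2 other filters, the row with the lowest total, 2 other fold change rules, a replicate term and the removal of each library.

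The members and lists were chosen with earlier results of these data known. Text names *Acly*, all members, the called genes of each list or otherwise the 2 with the largest change at an adjusted p under 0.05, called neighbours, the 2 genes most like each called member, and called or absent markers. *Ccr3*, *Adam10*, *Adam17*, *Cxcr2*, *Cxcr6*, *Cx3cl1*, *Arl2bp*, *Med11*, *Tubb1*, *Ppbp*, *Art3*, *Adgre1*, *Zbtb46*, *Mink1* and *Zmynd15* were named in addition, after their values were seen. A marker gene is not reported by name here. The scripts were tested on simulated data.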

Additional observations from a re-analysis of the deposited data

How the results depend on the processing

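*Ccl22* and *Cxcl16* were both called lower with RLE size factors, DESeq2, limma-voom, both other filters, the row with the lowest total and each library left out, while glmTreat called 1 member lower, where *Cxcl16* kept -0.68 without a call. By the adjusted p-value alone, 1 member was called higher, *Pf4* at 0.42. The log2 fold change of *Cxcl10* ranged from -0.21 to 0.50 and that of *Ccl24* from -0.014 to 0.0896 over the fits without 1 library. In the 7 lists, the genes called lower went from 7 to 22 by the adjusted p-value alone and 1 with glmTreat, with 4 to 7 over the fits without 1 library, the lowest without AclyM-KO replicate 1. Those called higher went from 3 to 14 by the adjusted p-value alone and 5 with no filter on low counts, with 3 to 5 over the fits without 1 library, the highest without Ctrl replicate 2. Over all genes, 309 were lower and 358 higher, against 41 and 77 with glmTreat and 1511 and 1485 by the adjusted p-value alone.

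Same-numbered deviations from the group means correlated at -0.065, 0.050 and -0.031, and differently numbered ones at -0.076 to 0.111. No pairing by replicate number was thus visible, but 3 libraries per group cannot show that the libraries were unpaired. With the number as a replicate block, 2 members were called lower and 0 higher, 7 and 3 genes of the lists were called lower and higher, and 302 and 350 of all genes were. *Ccl17*, *Cxcl1*, *Cxcl2* and *Cxcl3* are limited by depth, at 0 to 22 counts per library.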

Other observations

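Several chemokine genes outside the 10 described above had high counts in these BMDMs, and the genes named in this paragraph were chosen after their values were seen. *Ccl9*, which encodes a CC chemokine made by macrophages, was at 2517 ± 136 CPM in Ctrl libraries and higher in AclyM-KO, at 3527 ± 5.08 CPM (SD, n = 3 each). This log2 change of 0.49 passed the test (edgeR adjusted p = 2.91e-07) but was too small for a call. *Ccl6* had 1945 ± 87.8 and 1870 ± 18.9 CPM (SD, n = 3 each), with a log2 fold change of -0.06 (edgeR adjusted p = 0.301). The monocyte chemoattractant genes *Ccl2* and *Ccl7* had no call, unlike *Ccl8* and *Ccl12*, and the difference between these genes was not tested. *Ccl2* had 241 ± 38.1 and 247 ± 27.5 CPM (SD, n = 3 each), with a log2 fold change of 0.03 (edgeR adjusted p = 0.836). *Ccl7* had 241 ± 29.3 and 255 ± 26.3 CPM (SD, n = 3 each), with a log2 fold change of 0.08 (edgeR adjusted p = 0.513). *Ccl4* was lower within the fold change limit, with 46.1 ± 8.23 and 35.6 ± 3.03 CPM (SD, n = 3 each) and a log2 fold change of -0.37 (edgeR adjusted p = 0.0155).

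Among the mRNA decay factors, *Zfp36*, which encodes tristetraprolin, rose within the limit (log2 fold change 0.37, edgeR adjusted p = 6.97e-05), as did *Arid5a* (0.42, edgeR adjusted p = 0.00153), while *Zfp36l1*, a relative of *Zfp36*, was called lower. These genes were also chosen after their values were seen.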
